A study of Mus musculus with 4 samples.

Results

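A pair of kinase inhibitors was set against each other in cultured mouse palatal mesenchymal cells, on 2 of the 4 arrays of the study. The first culture was exposed to 5Z-7-oxozeaenol (oxozeaenol from here on), an inhibitor of the Tak1 kinase, and the second to SB431542, an inhibitor of the TGF-beta type I receptor kinase. In both, the inhibitor was given for 60 minutes and TGF-beta2 then followed for 120 minutes. The remaining arrays, 1 of an untreated culture and 1 of a culture with TGF-beta2 alone for 120 minutes, serve here as levels beside the inhibitor arrays. The 2 inhibitor arrays were chosen by their treatment labels, so no measured value entered the choice. All 4 were primary cultures of the connective tissue cells of the embryonic palate, from outbred wild-type embryos at E14.0 (embryonic day 14), and 500 ng of total RNA of each was labelled for an Affymetrix 3′ expression array. Inhibitor and ligand doses, and whether embryos were pooled, were not given in the labels used here.

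TGF-beta2 binds a pair of receptor kinases, and the type I kinase phosphorylates Smad proteins, which then enter the nucleus and switch genes on or off. The same receptors can also activate Tak1 (gene Map3k7), a kinase that passes signals from TGF-beta, interleukin-1 and tumour necrosis factor receptors to the MAP kinases and to NF-kappaB. SB431542 acts on the receptor kinase and thus on the signals that need its activity. Oxozeaenol acts on Tak1 whichever receptor feeds it, and is known to bind some other kinases too, MEK of the ERK pathway among them. MAP kinases switch on immediate early genes within minutes, and these are followed by feedback genes that shut the kinases off again. In the palate, TGF-beta signalling in mesenchyme controls growth of the shelves, and loss of the type II receptor in these cells gives cleft palate. The comparison asks which transcripts differ between a culture given oxozeaenol and a culture given SB431542. A block of Tak1 and a block of other kinases by oxozeaenol cannot be told apart in it.

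Levels are the deposited linear signals, which have no unit and were already at a common average on every array. Array medians lay between 66.4 and 72.8. Differences are log2(signal with oxozeaenol + 21.7) minus log2(signal with SB431542 + 21.7), so a value above 0 means a higher level with oxozeaenol, and 21.7 is the 25th percentile of all signals. Folds are on this same scale and understate differences of dim genes. A gene entered when its mean over the 4 arrays reached a signal of 66.1, called the filter level below, which left 11744 genes. Each group holds 1 array. There is no spread between replicates, no test and no p-value, and a gene is called higher or lower when it differs by at least 2-fold.

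With oxozeaenol, transcripts of a number of MAP kinase feedback genes, immediate early transcription factors and chemokines were at least 2-fold below their levels with SB431542. Those of the EGF receptor ligand genes Ereg and Hbegf were as well. A number of keratin and cornified envelope genes were at least 2-fold above. Most genes did not differ by this rule. Of the 11744 genes, 177 (1.51%) were at least 2-fold higher with oxozeaenol, 153 (1.30%) were at least 2-fold lower, and 11414 (97.2%) lay within 2-fold. These shares are the background for every count below. The median difference over all genes was 0.02, and the middle 95% of genes lay between −0.76 and 0.83. Differences of at least 4-fold were found for 28 higher and 35 lower genes, and of at least 8-fold for 13 higher and 8 lower genes.

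The lower genes were brighter than the higher ones. Median signals of the 153 lower genes were 574 with SB431542 and 188 with oxozeaenol, and those of the 177 higher genes were 121 and 463. Among the 2936 dimmest genes 104 were higher and 48 lower, while among the 2936 brightest, from a mean signal of 1648 up, 7 were higher and 29 lower. On the dimmer of the inhibitor arrays, 63 (35.6%) of the higher genes and 37 (24.2%) of the lower genes had a signal under the filter level, and the size of those differences depends on the added 21.7. Higher genes numbered 110 of 11745 with the added value at the median of all signals and 46 of 7097 with a filter at the 75th percentile. Other probe sets of the same gene were a partial check. Of 47 higher genes with more than 1 kept probe set, 41 had no probe set on the opposite side, and of 48 such lower genes 47 had none.

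**Figure D1:**
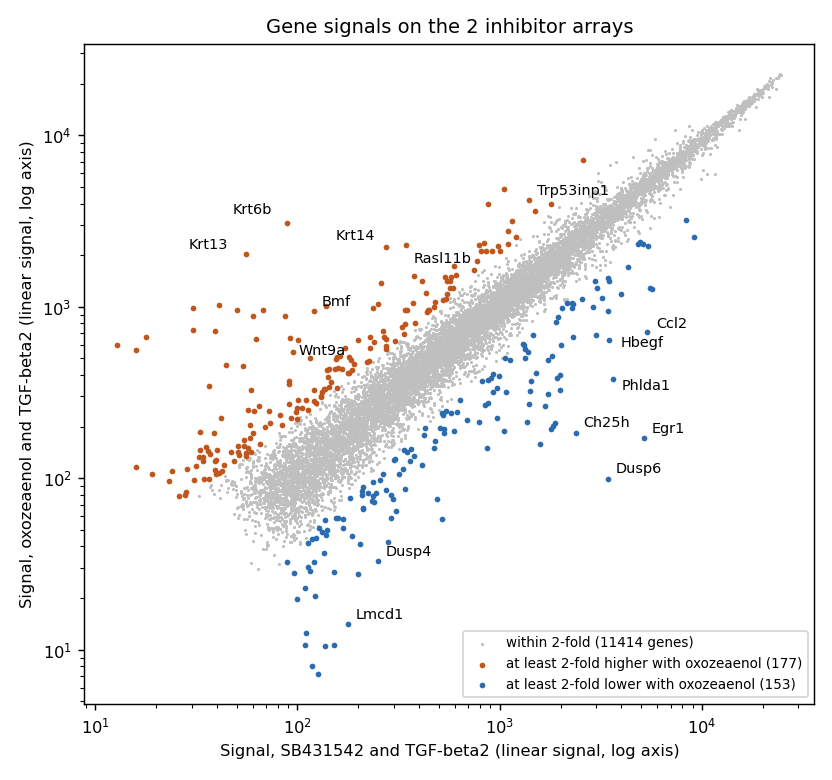
Signals of the 11744 genes on the SB431542 array (horizontal) and the oxozeaenol array (vertical), both linear signals on log axes, with 1 point per gene. Orange points are the 177 genes at least 2-fold higher with oxozeaenol, blue the 153 at least 2-fold lower and grey the 11414 within 2-fold. Dusp6 and Egr1 lie farthest below the diagonal among bright genes, at 99.3 and 171 with oxozeaenol.

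The untreated and TGF-beta2 arrays, which take no part in the difference, show which inhibitor array stood apart. Among the 153 lower genes, oxozeaenol gave the lowest of the 4 signals in 148 (96.7%), and in 98 (64.1%) it was at least 2-fold below each of the other 3. SB431542 was at least 2-fold above each of the other 3 in 1 gene, Stap2, which encodes a signalling adaptor, at 207 untreated, 218 with TGF-beta2, 507 with SB431542 and 196 with oxozeaenol. Among the 177 higher genes, oxozeaenol gave the highest signal in 154 (87.0%) and was at least 2-fold above the other 3 in 74 (41.8%). SB431542 was the lowest in 105 (59.3%) and at least 2-fold below the other 3 in 18 (10.2%). The brightest of these 18 was Rflnb, a regulator of actin filaments, at 2586 untreated, 4165 with TGF-beta2, 1155 with SB431542 and 3182 with oxozeaenol, with its 3 probe sets between 0.18 and 1.44. In both directions, then, the oxozeaenol array was more often the odd one of the 4 than the SB431542 array. On the higher side the filter favours this, because a gene dim elsewhere could pass only through a high oxozeaenol signal. That tally is therefore a description and no support. Stap2 and Rflnb were picked after their values had been seen.

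Brakes on the MAP kinase pathway had the lowest median of all gene lists, which were chosen with earlier results of these data known. Of 20 MAPK feedback genes, all 20 of them measured, 10 were lower with oxozeaenol and 0 higher, against 1.30% and 1.51% of all genes. Their median difference was −1.03, against 0.02 for all genes, and 17 of the 20 were below 0. Dusp6, the cytoplasmic phosphatase of the MAP kinase ERK, read 3658 untreated, 4547 with TGF-beta2, 3451 with SB431542 and 99.3 with oxozeaenol. That is a 28.7-fold lower level with oxozeaenol than with SB431542 (log2 difference −4.84), the largest difference in either direction among all 11744 genes. The 3 arrays without oxozeaenol lay close together for Dusp6, and oxozeaenol stood alone. Fewer cells of a kind and less RNA per cell cannot be told apart in such bulk RNA, here and below.

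Phlda1, a protein linked to growth factor feedback, read 4207 untreated, 6534 with TGF-beta2, 3616 with SB431542 and 379 with oxozeaenol (−3.18). Spred2, an inhibitor of the step from Ras to Raf, read 2206 untreated, 2373 with TGF-beta2, 1988 with SB431542 and 327 with oxozeaenol, and its 2 probe sets differed by −2.53 to −2.16. Errfi1, an inhibitor of the EGF receptor kinase, read 3830.4 untreated, 6764 with TGF-beta2, 3002 with SB431542 and 683 with oxozeaenol (−2.10). In all of these the SB431542 signal was within 2-fold of the untreated signal and the oxozeaenol signal was the lowest of 4. Further phosphatase genes were also lowest with oxozeaenol, with other orders among the rest. Dusp4, a nuclear MAP kinase phosphatase, read 470.3 untreated, 964 with TGF-beta2, 250.03 with SB431542 and 32.9 with oxozeaenol (−2.32), so both inhibitors lay under untreated. Dusp1, which removes phosphate from p38 and JNK as well as ERK, read 1649.9 untreated, 1063 with TGF-beta2, 1914 with SB431542 and 387 with oxozeaenol (−2.25), with SB431542 highest and TGF-beta2 under untreated. Spred1 (−1.78, 6 probe sets between −1.91 and −0.65), Dusp5 (−1.39), Dusp2 (−1.94, with 109.96 with SB431542 and 12.5 with oxozeaenol) and the Sprouty gene Spry2 (−1.19) complete the 10. Within 2-fold were 10 members, from Rasa2 at −0.88 to Dusp14 at 0.20, among them Dusp8 (0.00), Dusp10 (0.09) and Dusp16 (−0.36), phosphatases that act mainly on JNK and p38.

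Immediate early genes followed. Of 30 listed, 27 passed the filter, and of these 11 (40.7%) were lower with oxozeaenol and 0 higher, with a median of −0.83. Egr1, a zinc finger transcription factor induced by ERK, read 4389 untreated, 10257 with TGF-beta2, 5195 with SB431542 and 171 with oxozeaenol, a 27-fold lower level with oxozeaenol (−4.76). Its paralogue Egr3 read 354 untreated, 605 with TGF-beta2, 281 with SB431542 and 42.2 with oxozeaenol (−2.24). Egr2 differed less between the inhibitors, at 461 untreated, 3154 with TGF-beta2, 236 with SB431542 and 95.2 with oxozeaenol (−1.14). For each of the 3 Egr genes the SB431542 signal was within 2-fold of untreated and oxozeaenol gave the lowest of the 4 signals.

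Fos, a subunit of the transcription factor AP-1, read 1644 untreated, 2089 with TGF-beta2, 1392 with SB431542 and 269 with oxozeaenol (−2.28). Fosl1, which encodes the AP-1 subunit Fra-1, read 1519 untreated, 1722 with TGF-beta2, 1372 with SB431542 and 212 with oxozeaenol (−2.58). Myc, the growth-promoting transcription factor, read 1676 untreated, 2376 with TGF-beta2, 1736 with SB431542 and 309 with oxozeaenol (−2.41). Each of these had oxozeaenol as the lowest of the 4 arrays, by more than 4-fold below the next. The other members were not all alike. Klf2 (−2.36), Maff (−2.01), the nuclear receptor gene Nr4a1 (−1.52), Ier2 (−1.07) and Klf4 (−1.05, 2 probe sets between −1.52 and −1.05) were also lower. Jun, the partner of Fos, was at −0.83, under the 2-fold rule, and Atf3 (−0.19), Fosl2 (−0.02), Junb (0.29), Zfp36 (0.29) and Srf (0.49) lay closer to 0. The 3 members under the filter level did not go one way. Egr4 read 14.6 with SB431542 and 74.7 with oxozeaenol, Nr4a3 11.4 with SB431542 and 71.1 with oxozeaenol and Arc 58.9 with SB431542 and 11.5 with oxozeaenol.

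**Figure D2:**
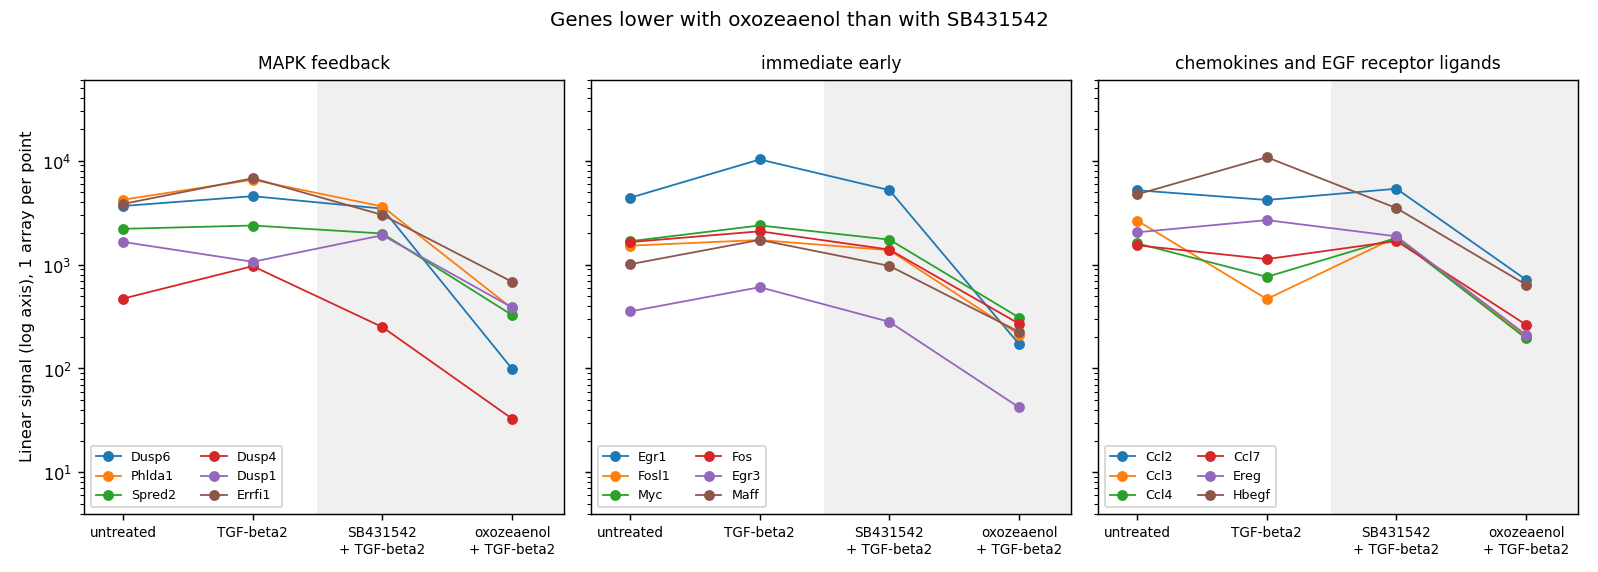
Linear signal (log axis) of 18 genes on each of the 4 arrays, 1 point per array, with lines only to guide the eye and the inhibitor arrays shaded. Dusp6 sits between 3451 and 4547 on 3 arrays and at 99.3 with oxozeaenol, and oxozeaenol is the lowest array for every gene drawn.

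Promoter sequence is shown for the lowest of these feedback and early genes for which RefSeq sequence was at hand, so that the letters before their starts can be read beside their values. Each window holds the 250 bases before an annotated transcription start, from RefSeq on GRCm38.p6, read 5′ to 3′ on the gene's strand. They were searched on both strands for 6 motifs: the CArG box bound by serum response factor, the AP-1 site TGANTCA, the cAMP response element TGACGTCA, the Egr site GCGNGGGCG, the Smad element CAGACA and the ETS site CCGGAA. Capitals mark every match. Dusp6 lies at chr10:99262981-99263230 on the plus strand, Spred2 at chr11:19924192-19924441 on the plus strand and Klf2 at chr8:72318812-72319061 on the plus strand. Dusp5 at chr19:53528895-53529144 on the plus strand and Ch25h at chr19:34475149-34475398 on the minus strand were added after their values and matches had been seen. For Egr1, Phlda1, Fosl1 and Myc no window is printed.
Dusp6: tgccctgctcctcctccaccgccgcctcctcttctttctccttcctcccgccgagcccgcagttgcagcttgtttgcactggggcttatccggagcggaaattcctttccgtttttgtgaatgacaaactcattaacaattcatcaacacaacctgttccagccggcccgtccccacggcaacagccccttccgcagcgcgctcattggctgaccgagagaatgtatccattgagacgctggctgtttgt
Spred2: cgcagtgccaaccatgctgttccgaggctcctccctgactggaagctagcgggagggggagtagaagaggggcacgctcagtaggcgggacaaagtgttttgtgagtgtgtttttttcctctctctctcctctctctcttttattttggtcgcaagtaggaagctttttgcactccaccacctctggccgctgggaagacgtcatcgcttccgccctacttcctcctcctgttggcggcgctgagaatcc
Klf2: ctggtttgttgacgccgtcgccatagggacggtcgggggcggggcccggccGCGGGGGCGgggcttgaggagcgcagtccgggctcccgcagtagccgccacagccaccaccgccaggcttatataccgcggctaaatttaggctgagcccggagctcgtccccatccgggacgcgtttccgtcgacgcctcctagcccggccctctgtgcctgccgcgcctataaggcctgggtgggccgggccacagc
Dusp5: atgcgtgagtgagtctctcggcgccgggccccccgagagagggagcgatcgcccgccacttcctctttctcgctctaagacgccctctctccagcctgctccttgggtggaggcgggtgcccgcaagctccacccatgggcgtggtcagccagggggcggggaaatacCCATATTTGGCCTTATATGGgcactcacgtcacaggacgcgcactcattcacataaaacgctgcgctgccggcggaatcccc
Ch25h: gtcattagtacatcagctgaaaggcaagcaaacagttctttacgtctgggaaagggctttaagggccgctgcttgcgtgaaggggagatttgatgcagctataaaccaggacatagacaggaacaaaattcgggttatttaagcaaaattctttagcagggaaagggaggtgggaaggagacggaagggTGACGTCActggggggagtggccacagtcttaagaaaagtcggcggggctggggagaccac

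In these windows Dusp6 and Spred2 hold none of the 6 motifs as spelled. Klf2 holds an Egr site at positions −199 to −191 before the start. Dusp5 holds 2 CArG boxes side by side, at −82 to −73 and −72 to −63, and Ch25h a cAMP response element at −61 to −54. A CArG box was found in 1.47% of all 32851 windows and in 1.15% of windows of measured genes. It was in 6 of the 152 windows of lower genes (3.95%), with a like share in higher genes (8 of 159, 5.03%). For the cAMP response element the shares were 1.55% of all windows, 2.54% of windows of measured genes, 11 of 152 windows of lower genes (7.24%) and 0 of 159 windows of higher genes. AP-1 sites were in 6.75% of all windows, 4.78% of windows of measured genes, 17 windows of lower genes (11.2%) and 18 of higher genes (11.3%). ETS sites were in 12.03% of all windows, 21.1% of windows of measured genes, 14 windows of lower genes (9.21%) and 16 of higher genes (10.1%). For Egr sites the shares were 4.70% of all windows, 8.92% for measured genes, 9.21% for lower and 10.7% for higher genes. For the Smad element they were 17.1%, 13.6%, 11.8% and 12.6% in the same order. Of the 153 lower genes 110 had a window, a gene with several starts gives several overlapping windows, and a match is a run of letters, not a bound site.

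Transcription factors of the ETS family that ERK controls were measured for 9 of 10 genes, of which 2 were lower and 0 higher (median −0.43). Etv5, which follows FGF and ERK signalling, read 742 untreated, 1189 with TGF-beta2, 1725 with SB431542 and 488 with oxozeaenol (−1.78, 3 probe sets between −1.78 and −0.64). Etv4, its close relative, read 137 untreated, 191 with TGF-beta2, 167 with SB431542 and 57.6 with oxozeaenol (−1.25) and is dim, with its oxozeaenol signal under the filter level. For Etv5 the SB431542 signal was the highest of the 4, which widens this gap. The list median was −0.09 when all probe sets of a gene were averaged, and Ets1 stood at 0.52 with its 4 probe sets between −0.61 and 0.52.

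Ligands of the EGF receptor differed among themselves. Ereg, which encodes epiregulin, read 2042 untreated, 2676 with TGF-beta2, 1867 with SB431542 and 210.1 with oxozeaenol (−3.03). Hbegf, the heparin-binding ligand, read 4733 untreated, 10779 with TGF-beta2, 3488 with SB431542 and 639.5 with oxozeaenol, 5.31-fold lower with oxozeaenol, and its 2 probe sets differed by −2.57 to −2.41. Nrg1, a ligand of the related receptors ErbB3 and ErbB4, ran the other way at 195 untreated, 181 with TGF-beta2, 136 with SB431542 and 329.7 with oxozeaenol (1.16). In all, 2 of the 8 measured members were lower and 1 higher. The receptor gene Egfr itself read 712 with SB431542 and 611 with oxozeaenol (−0.21), but its 5 probe sets ranged from −1.32 to −0.09.

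Several chemokines were among the most unequal transcripts. Of 21 chemokines listed, whichever cells they draw, 18 were measured, 7 (38.9%) of them lower with oxozeaenol and 0 higher, with a median of −0.38. Ccl2, the main monocyte attractant, read 5185 untreated, 4179.7 with TGF-beta2, 5362 with SB431542 and 714 with oxozeaenol (−2.87). Ccl7, a relative in the same gene cluster, read 1531 untreated, 1128 with TGF-beta2, 1683 with SB431542 and 263 with oxozeaenol (−2.58). Ccl3 read 2646 untreated, 466 with TGF-beta2, 1838 with SB431542 and 201 with oxozeaenol (−3.06). Ccl3 was thus also low with TGF-beta2 alone, and SB431542 lay nearer to untreated. Ccl4, which like Ccl3 is made by macrophages, read 1597 untreated, 760.3 with TGF-beta2, 1801 with SB431542 and 194 with oxozeaenol (−3.08). Cxcl3 (−2.39), Ccl12 (−1.75) and Cxcl2 (−1.46) were the other lower members. The other 11 were within 2-fold, and 15 of the 18 were below 0. They included Cx3cl1 (−0.63), Ccl9 (−0.39), Cxcl16 (−0.37) and Cxcl5 (−0.22), while Cxcl1 (−0.08), Cxcl10 (−0.09), Ccl8 (−0.07), Ccl5 (0.03) and Cxcl12 (0.19) were nearer to 0.

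The cultures also held transcripts of macrophages, which make several of these chemokines. All 14 measured macrophage and blood markers had lower signals with oxozeaenol than with SB431542, by 0.01 to 0.62 on the log2 scale, with a median of −0.17 (−0.25 with median centring, −0.16 with quantile normalization) and 0 of 14 past 2-fold. Their summed signal was 86245 untreated, 81195 with TGF-beta2, 82337 with SB431542 and 70486 with oxozeaenol. Csf1r, the receptor for the macrophage growth factor, read 8693 untreated, 8651 with TGF-beta2, 8224 with SB431542 and 7343 with oxozeaenol, and Cd14, a co-receptor for bacterial lipopolysaccharide, differed most at −0.62. None of the 14 was at 0 on any array. Small differences to this side were also found for 11 of 11 mesenchyme markers (median −0.13), 7 of 8 housekeeping genes (−0.08) and 25 of 33 collagen and matrix genes (−0.08). The part of macrophage RNA in the chemokine differences was not tested.

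NF-kappaB genes held a few lower members. Of 24 measured inflammatory genes and NF-kappaB subunits, inhibitors and targets, 3 (12.5%) were lower and 0 higher, and 16 were below 0 with a median of −0.09. Tnf, the inflammatory cytokine, read 109.6 untreated, 116 with TGF-beta2, 137 with SB431542 and 10.5 with oxozeaenol (−2.30), with all 4 signals dim. Tnfaip3, which encodes the NF-kappaB inhibitor A20, read 611 untreated, 726 with TGF-beta2, 592 with SB431542 and 188 with oxozeaenol (−1.55). Nfkbie, an inhibitor of the IkappaB family, read 289 untreated, 343 with TGF-beta2, 341 with SB431542 and 86.4 with oxozeaenol (−1.75, 2 probe sets between −1.75 and −0.92). The other 21 were within 2-fold. Nfkbiz, an atypical IkappaB protein, was lowest of these at −0.92, followed by Tnfaip2 at −0.74 (2 probe sets between −0.74 and −0.61), and Rel was at −0.47. Nfkbia, which encodes IkappaB-alpha, stood at −0.01, Nfkb2 at 0.00, Icam1 at −0.24, Ptgs2 at 0.08 and Il1b at 0.22.

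Cytokines of the interleukin-6 family and their signal regulators held 5 lower and 0 higher genes among 14 measured (35.7%, median −0.36). Clcf1, a ligand of the ciliary neurotrophic factor receptor, read 1069 untreated, 1614 with TGF-beta2, 789 with SB431542 and 214 with oxozeaenol (−1.78, 3 probe sets between −1.78 and −0.38). Il6 itself read 331 untreated, 1095 with TGF-beta2, 210.3 with SB431542 and 66.3 with oxozeaenol (−1.40). Il11, a mesenchymal cytokine of this family, read 663 untreated, 2736 with TGF-beta2, 265 with SB431542 and 105 with oxozeaenol (−1.17). Both inhibitor arrays were below untreated for Il6 and Il11, and oxozeaenol was the lower of the pair. Socs3, a feedback inhibitor of cytokine receptors, read 1447 untreated, 2147 with TGF-beta2, 1331 with SB431542 and 505 with oxozeaenol (−1.36), and the oncostatin M receptor gene Osmr was at −1.06. Lif, in contrast, read 404 untreated, 1931 with TGF-beta2, 179 with SB431542 and 150.2 with oxozeaenol, so the inhibitors differed by only −0.22.

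Plasminogen activation and a few single genes add to the lower side. Plau, the urokinase gene, read 672 untreated, 1039.99 with TGF-beta2, 928 with SB431542 and 318 with oxozeaenol (−1.48, 2 probe sets between −1.48 and −0.78). Its receptor Plaur read 2978 untreated, 3770.2 with TGF-beta2, 2555 with SB431542 and 1105 with oxozeaenol (−1.19), and the inhibitor Serpinb2 read 4266 untreated, 3112 with TGF-beta2, 4288 with SB431542 and 1697 with oxozeaenol (−1.33). These were the 3 lower genes of 20 measured matrix proteases and inhibitors, while Mmp11, a stromal metalloproteinase, was higher at 1.17 and Mmp2 (−0.03), Mmp14 (−0.04) and Timp2 (−0.14) differed little. Ch25h, the enzyme that makes 25-hydroxycholesterol, read 1309 untreated, 2939 with TGF-beta2, 2379 with SB431542 and 184 with oxozeaenol (−3.54). It was the 1 lower gene of 14 in the cholesterol and oxysterol list, whose other members lay between −0.14 and 0.51. Csf1, the macrophage growth factor, read 8316 untreated, 8403 with TGF-beta2, 8322 with SB431542 and 3206 with oxozeaenol (−1.37), but its 4 probe sets ranged from −1.5 to −0.07. Rgs16, which speeds the turning off of G proteins, read 2038 untreated, 1693 with TGF-beta2, 1584 with SB431542 and 157 with oxozeaenol, and its 2 probe sets differed by −4.34 to −3.16.

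Genes of stratified epithelium made up the far end of the higher side. Of 43 listed suprabasal and cornified envelope genes, 27 passed the filter, 18 (66.7%) of these were higher with oxozeaenol and 0 lower, and the median was 1.62. A gene that passed the filter only through a high signal with oxozeaenol had to differ, so this share is a description and no support. Krt6b, a keratin of stressed and differentiating epithelium, read 59.7 untreated, 56.0 with TGF-beta2, 88.9 with SB431542 and 3060.4 with oxozeaenol (4.80). Krt13, the keratin of the layers above the base in oral epithelium, read 28.0 untreated, 24.3 with TGF-beta2, 55.8 with SB431542 and 2023 with oxozeaenol (4.72). Both were under 100 on all arrays but that with oxozeaenol. Krt6a had signal on every array, at 821 untreated, 953 with TGF-beta2, 1049 with SB431542 and 4877 with oxozeaenol (2.19, 3 probe sets between 2.15 and 3.47), and it is the 1 member that was still called with the 75th percentile filter. Sprr1a, a small proline-rich protein of the cornified envelope, read 100.005 untreated, 71.4 with TGF-beta2, 87.1 with SB431542 and 888 with oxozeaenol (3.06). Krtdap, a keratinocyte differentiation protein, read 12.1 untreated, 5.57 with TGF-beta2, 50.4 with SB431542 and 951 with oxozeaenol (3.75). Loricrin, the main protein of the envelope (Lor), read 131 untreated, 119.6 with TGF-beta2, 155 with SB431542 and 496 with oxozeaenol (1.56). Near-identical copies such as Krt6a and Krt6b, the Sprr2 genes and the Lce3 genes may share probe sequence, so the split between them is uncertain.

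The window before Sprr1a, at chr3:92485882-92486131 on the minus strand of GRCm38.p6 (RefSeq), is shown because it holds 2 AP-1 sites, in capitals, at −146 to −140 and −116 to −110. It was chosen after its values and matches had been seen.
Sprr1a: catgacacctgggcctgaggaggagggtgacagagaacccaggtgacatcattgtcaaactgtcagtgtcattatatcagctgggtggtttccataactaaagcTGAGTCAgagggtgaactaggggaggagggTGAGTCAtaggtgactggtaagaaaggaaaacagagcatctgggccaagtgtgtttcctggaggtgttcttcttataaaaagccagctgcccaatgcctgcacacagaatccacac

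Not all epidermal genes took part. Krt10, the keratin of the epidermal spinous layer, read 225 untreated, 212 with TGF-beta2, 214 with SB431542 and 397 with oxozeaenol (0.83), and Sbsn (0.63), Elovl4 (0.51), Cdsn (0.14), Tgm3 (−0.12) and Aloxe3 (−0.19) were within 2-fold. Of the 13 members with a probe set but under the filter, Calm4 read 10.1 with SB431542 and 324 with oxozeaenol, Sprr1b 1.51 with SB431542 and 137 with oxozeaenol and Krt1 2.60 with SB431542 and 90.4 with oxozeaenol. Ivl, which encodes involucrin, read 13.4 with SB431542 and 4.62 with oxozeaenol, and Flg, which encodes filaggrin, read 21.5 with SB431542 and 17.8 with oxozeaenol. These 2 genes of the granular layer were under the filter level with either inhibitor.

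Basal epithelial and adhesion genes were measured for 23 of 40 listed, with 7 (30.4%) higher, 0 lower and a median of 0.55. Without any filter, 15 of the 37 with a probe set were higher, against 527 of 18193 genes. The members so added had mean signals under the filter level. Krt14 and Krt5, which pair in basal keratinocytes, were both higher. Krt14 read 141 untreated, 295 with TGF-beta2, 275 with SB431542 and 2218 with oxozeaenol (2.92, 2 probe sets between 2.55 and 2.92). Krt5 read 195 untreated, 233 with TGF-beta2, 258 with SB431542 and 1383 with oxozeaenol (2.33). Dsp, which encodes the desmosome protein desmoplakin, read 147 untreated, 148 with TGF-beta2, 139 with SB431542 and 1012 with oxozeaenol (2.69, 2 probe sets between 2.61 and 2.69). For each of these 3 genes the oxozeaenol signal was at least 4-fold above those of the other arrays. Dsc2 (2.86), Perp (1.31), Krt19 (1.28) and the cadherin gene Cdh1 (1.19) were the other higher members. Trp63, the master regulator of basal keratinocytes, was under the filter at 26.1 untreated, 37.2 with TGF-beta2, 52.0 with SB431542 and 128 with oxozeaenol, and Krt15 read 2.27 untreated, 2.48 with TGF-beta2, 14.7 with SB431542 and 524 with oxozeaenol.

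Of 12 general epithelial markers, which overlap the basal list, 9 were measured, with 4 (44.4%) higher, 0 lower and a median of 0.55. The higher 4 were Krt14, Krt5, Krt19 and Cdh1, and the other 5 lay within 2-fold. Epcam, the epithelial adhesion molecule, read 369 untreated, 232 with TGF-beta2, 331 with SB431542 and 366 with oxozeaenol (0.14). Krt8, a keratin of simple epithelium, read 563 untreated, 458 with TGF-beta2, 465 with SB431542 and 684 with oxozeaenol (0.54), and its partner Krt18 differed by 0.55. Summed over measured members, the suprabasal list stood at 3537 untreated, 3706 with TGF-beta2, 4152 with SB431542 and 22151 with oxozeaenol. The basal list stood at 6969, 7043, 6571 and 13045 in the same order. A gene that passed the filter only through a high oxozeaenol signal raises these sums and the shares of the basal and general lists. They are therefore descriptions and no support. More epithelial cells in this 1 culture and more epithelial RNA per cell cannot be told apart. Leaving out the epithelial lists and every keratin, Sprr and Lce gene left 11679 genes, with 151 higher and 153 lower.

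**Figure D3:**
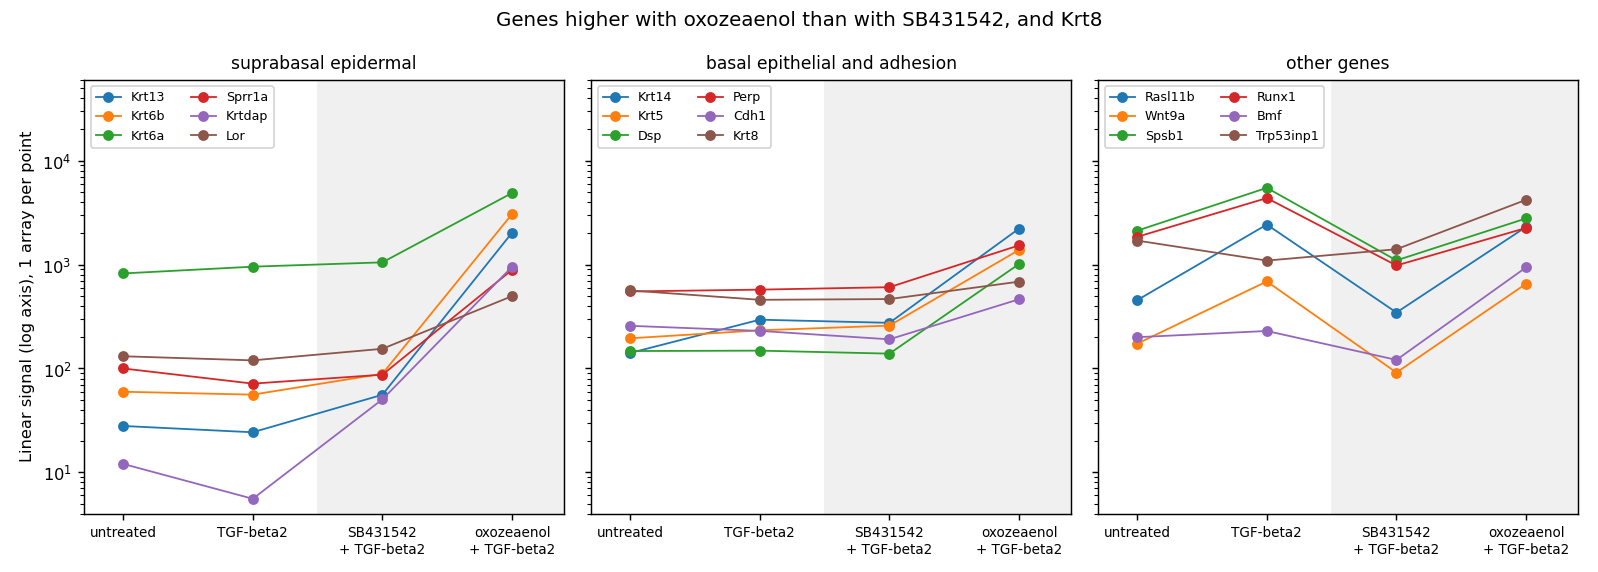
Linear signal (log axis) of 18 genes on each of the 4 arrays, 1 point per array, with lines only to guide the eye and the inhibitor arrays shaded. Krt13 and Krt6b lie under 100 on 3 arrays and at 2023 and 3060 with oxozeaenol, while Rasl11b and Wnt9a are high both with TGF-beta2 alone and with oxozeaenol.

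The Smad target list held 2 higher genes, both by more than 4-fold. Rasl11b, which encodes a small Ras-like GTPase, read 454 untreated, 2424 with TGF-beta2, 345 with SB431542 and 2302 with oxozeaenol (2.66). Wnt9a, a Wnt ligand, read 173 untreated, 687 with TGF-beta2, 91.3 with SB431542 and 654 with oxozeaenol (2.58). For both, the oxozeaenol signal was within 2-fold of that with TGF-beta2 alone and the SB431542 signal was the lowest of the 4. Of 37 measured TGF-beta and Smad targets, 6 were lower and the median was −0.20. Their windows are printed because they are the Smad target genes highest with oxozeaenol. Rasl11b lies at chr5:74195076-74195325 and Wnt9a at chr11:59306680-59306929, both on the plus strand of GRCm38.p6 (RefSeq). Capitals mark an ETS site at −29 to −24 in Rasl11b and an Egr site at −92 to −84 in Wnt9a, and neither window holds the Smad element CAGACA.
Rasl11b: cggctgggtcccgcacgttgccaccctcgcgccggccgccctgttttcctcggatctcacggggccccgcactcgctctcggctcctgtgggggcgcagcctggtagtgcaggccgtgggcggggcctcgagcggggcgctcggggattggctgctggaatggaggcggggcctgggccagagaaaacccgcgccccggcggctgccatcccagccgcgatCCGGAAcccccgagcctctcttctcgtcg
Wnt9a: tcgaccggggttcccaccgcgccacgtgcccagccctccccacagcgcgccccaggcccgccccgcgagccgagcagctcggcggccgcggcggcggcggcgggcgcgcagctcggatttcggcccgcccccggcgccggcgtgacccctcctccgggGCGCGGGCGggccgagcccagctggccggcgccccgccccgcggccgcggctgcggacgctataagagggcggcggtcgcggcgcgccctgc

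The 6 lower Smad targets were Lmcd1 (−2.48, with 178 with SB431542 and 14.1 with oxozeaenol), Hbegf, Hmga2, Snai2, Sphk1 and Il11. Hmga2, a chromatin protein of embryonic cells, read 5197 untreated, 5597 with TGF-beta2, 5679 with SB431542 and 1263 with oxozeaenol (−2.15, 3 probe sets between −2.37 and −1.88). Snai2, a repressor of epithelial genes, read 6599 untreated, 3238 with TGF-beta2, 9145 with SB431542 and 2553 with oxozeaenol (−1.83, 2 probe sets between −1.88 and −1.83). Sphk1, which makes sphingosine-1-phosphate, read 789.9 untreated, 1928 with TGF-beta2, 414 with SB431542 and 119.6 with oxozeaenol (−1.62). Snai2 was highest with SB431542 and lowest with oxozeaenol, and Sphk1 was below untreated with both inhibitors by its brighter probe set. Its other probe set read 113.7 untreated, 202.9 with TGF-beta2, 150.4 with SB431542 and 48.7 with oxozeaenol. Smad feedback genes, the receptor's own brakes, showed no such split. Of 10 measured, 0 were higher and 0 lower, and the median of −0.13 became 0.07 when all probe sets of a gene were averaged. Smad7, the inhibitory Smad, read 1810.2 untreated, 2317 with TGF-beta2, 1220.1 with SB431542 and 1120.1 with oxozeaenol (−0.12). Skil, a corepressor that Smads induce, read 2821 untreated, 4677 with TGF-beta2, 1749 with SB431542 and 2921 with oxozeaenol, and its 2 probe sets differed by −0.08 to 0.73. Of 14 BMP targets, Id1, an inhibitor of helix-loop-helix factors, was the 1 lower gene at 4944 untreated, 2905 with TGF-beta2, 5542 with SB431542 and 1295 with oxozeaenol (−2.08), and Id3 (−0.69), Id4 (−0.58) and Id2 (−0.22) were within 2-fold.

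Regulators of palate growth included genes on both sides. Of 32 measured, 4 (12.5%) were higher and 1 (3.13%) lower, with a median of 0.00. Mn1, a transcription cofactor without which the palate shelves fail to grow, read 1263 untreated, 1839 with TGF-beta2, 858 with SB431542 and 2112 with oxozeaenol (1.28). Runx1 read 1846 untreated, 4360.1 with TGF-beta2, 979 with SB431542 and 2249 with oxozeaenol (1.18), but its 6 probe sets ranged from −0.17 to 1.71. Gli2, the activating transcription factor of Hedgehog signalling, read 190.3 untreated, 229.8 with TGF-beta2, 228 with SB431542 and 578 with oxozeaenol (1.26, 2 probe sets between 0.86 and 1.26). Ptch1, the Hedgehog receptor and itself a Hedgehog target, read 688 untreated, 652 with TGF-beta2, 551 with SB431542 and 1192 with oxozeaenol (1.08). Gli2 and Ptch1 were also the 2 higher genes of 9 measured Hedgehog genes (0 lower, median 0.26), where Cdon was at 0.67, Smo at 0.27 and Gli3 at −0.19. Fgf7, a growth factor for epithelium made by mesenchyme, was the 1 lower palate gene at 2776 untreated, 2588 with TGF-beta2, 3194 with SB431542 and 1124 with oxozeaenol (−1.49, 2 probe sets between −1.64 and −1.49). Osr1 (−0.50), Shox2 (0.23), Sox9 (0.46), Bmp4 (0.54), Msx1 (−0.12) and Pax9 (−0.21), all factors of palate or facial development, were within 2-fold.

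Other growth factor and stress lists gave small counts. Fgf21, a metabolic hormone, read 111 untreated, 1055 with TGF-beta2, 57.2 with SB431542 and 251 with oxozeaenol (1.79), and the receptor gene Fgfr2 read 506 untreated, 412 with TGF-beta2, 593 with SB431542 and 1721 with oxozeaenol (1.5, 2 probe sets between 1.08 and 1.5). Wif1, a secreted Wnt inhibitor, was higher at 1.58, and with Wnt9a it made 2 higher and 0 lower among 20 Wnt genes (median 0.17). Of 17 p53 targets, 3 (17.6%) were higher and 0 lower (median 0.19). Trp53inp1, a stress-induced regulator of autophagy and cell death, read 1700.1 untreated, 1091 with TGF-beta2, 1403 with SB431542 and 4196 with oxozeaenol (1.57). The other 2 were Fas (1.09) and Perp, which is also a desmosome gene, while Cdkn1a (0.26) and Mdm2 (0.36), textbook p53 targets, were within 2-fold. Bmf, a cell death gene of the BH3-only class, read 199.8 untreated, 229 with TGF-beta2, 121 with SB431542 and 939 with oxozeaenol (2.75). Among 12 clock genes Dbp was higher at 277 untreated, 135 with TGF-beta2, 264 with SB431542 and 717 with oxozeaenol (1.37) and 0 were lower, with a median of 0.41 that was 0.25 when probe sets were averaged.

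**Figure D4:**
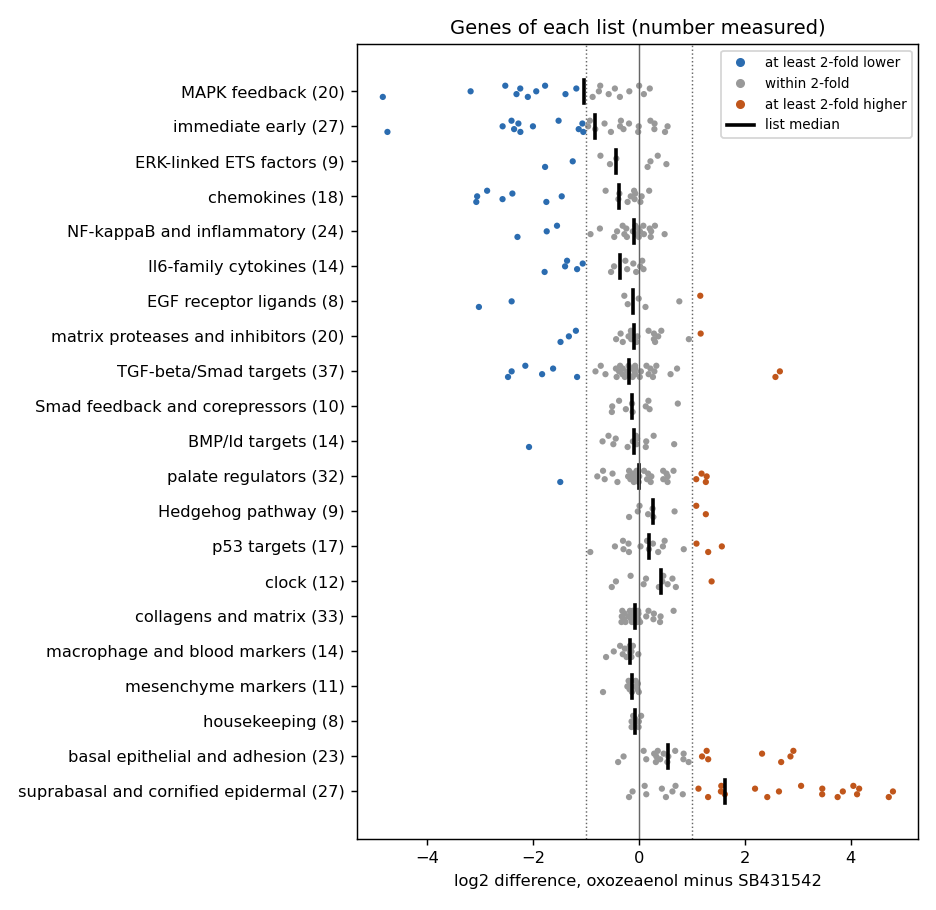
log2 difference (oxozeaenol minus SB431542) of each measured gene in 21 lists, with the number measured in brackets, 1 point per gene, dotted lines at 2-fold and a black bar at the list median. MAPK feedback (median −1.03) and immediate early genes (−0.83) lie to the left, suprabasal epidermal genes (1.62) to the right, and housekeeping genes (−0.08) at 0.

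Genes that respond to TGF-beta2 could be picked from the untreated and TGF-beta2 arrays, which share no array with the comparison of inhibitors. Against untreated, TGF-beta2 gave 79 genes (0.673%) that were higher by at least 2-fold and 43 (0.366%) that were lower. Of the 79, 11 (13.9%) were higher with oxozeaenol than with SB431542, 13 (16.5%) were lower and 55 lay in between, the median being −0.04. Of the 43, 4 (9.30%) were higher, 4 (9.30%) lower and 35 in between, the median being 0.02. So 32 of 122 responsive genes differed between the inhibitors, against 2.81% of all genes, and they split both ways. The part of dim or variable signals in this share was not tested.

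The 13 genes that were higher with TGF-beta2 and lower with oxozeaenol than with SB431542 were Egr1, Ch25h, Hbegf, Dusp4, 2610316D01Rik, Sphk1, Gsdma2, Rnf19b, Il6, Dusp5, Il11, Egr2 and Ier2. Most are immediate early, feedback or cytokine genes described above. Dusp5, a phosphatase specific to ERK, read 296 untreated, 927 with TGF-beta2, 333 with SB431542 and 113 with oxozeaenol (−1.39). Rnf19b, a ubiquitin ligase gene, read 648 untreated, 2091 with TGF-beta2, 530.2 with SB431542 and 183 with oxozeaenol (−1.43). The 11 that were higher with oxozeaenol were Asprv1, Rasl11b, Wnt9a, Fgf21, Spsb1, C1qtnf3, Sfn, Tst, Runx1, Tbxa2r and Tent5c. Spsb1, an adaptor of ubiquitin ligases, read 2117 untreated, 5467 with TGF-beta2, 1096 with SB431542 and 2777 with oxozeaenol (1.32), though its 3 probe sets ranged from −0.09 to 1.32. Asprv1, an epidermal protease, was under the filter level on all arrays but those with TGF-beta2 alone and with oxozeaenol, at 5.96 untreated, 87.1 with TGF-beta2, 15.8 with SB431542 and 557 with oxozeaenol. The 55 in between include Lif, Vegfa (−0.42), Bhlhe40 (−0.44), Junb (0.29), Has2 (−0.32) and Jag1 (0.78), for which the inhibitors gave like levels by the 2-fold rule. The 2 probe sets of Has2 ranged from −1.04 to −0.32, so the lower of them was past 2-fold.

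Among the genes lower with TGF-beta2, Ccl3, Ccl4, Ahr and Snai2 were lower with oxozeaenol than with SB431542. Ahr, the aryl hydrocarbon receptor, read 1210.3 untreated, 410.3 with TGF-beta2, 1435 with SB431542 and 367 with oxozeaenol (−1.91). By the brightest probe set of each, these 4 genes were within 2-fold of the untreated signal with SB431542. With oxozeaenol they were below the signal with TGF-beta2 alone. The other probe set of Snai2 read 1179 untreated, 1127 with TGF-beta2, 3328 with SB431542 and 888 with oxozeaenol. There, TGF-beta2 was within 2-fold of untreated and SB431542 was more than 2-fold above it. Crct1, Calhm5, Auts2 and Rspo2 were higher with oxozeaenol. Rspo2, a secreted enhancer of Wnt signalling, read 201 untreated, 83.5 with TGF-beta2, 447 with SB431542 and 954 with oxozeaenol (1.06), and its 2 probe sets ranged from −0.04 to 1.06. Id4 (−0.58), Osr1 (−0.50), Irs1 (0.44) and Pdgfra (−0.18) were within 2-fold between the inhibitors.

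**Figure D5:**
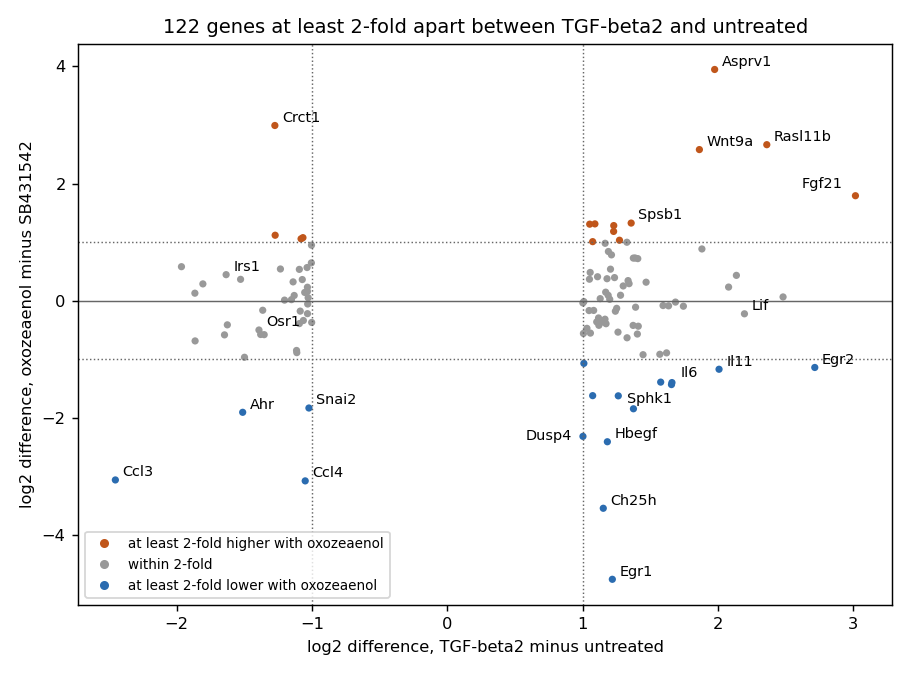
log2 difference between TGF-beta2 and untreated (horizontal) and between oxozeaenol and SB431542 (vertical) for the 122 genes at least 2-fold apart in the former, 1 point per gene, dotted lines at 2-fold. Of these, 15 lie at least 2-fold above 0 on the vertical axis (orange), 17 at least 2-fold below (blue) and 90 between (grey).

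Levels of the inhibitors' targets did not differ by 2-fold. Map3k7, which encodes Tak1, read 479.7 untreated, 551 with TGF-beta2, 539 with SB431542 and 575 with oxozeaenol (0.09, 4 probe sets between −0.07 and 0.45), and Tgfbr1, the type I receptor that SB431542 blocks, read 3561 untreated, 4881 with TGF-beta2, 3147 with SB431542 and 2893 with oxozeaenol (−0.12). These are transcript levels and say nothing of kinase activity. Of 16 measured genes of the Tak1 complex and the kinases below it, 0 were higher and 0 lower, from Map2k3 at −0.45 to Ikbkg at 0.39. The 16 measured receptors and Smads of the TGF-beta and BMP pathways were also all within 2-fold, from Tgfbr2 at −0.52 to Acvr2a at 0.79.

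Markers of the labelled cell type were bright. Of 12 mesenchyme markers 11 were measured, with summed signals between 124697 and 137665 on the 4 arrays, and 0 differed by 2-fold between the inhibitors. Col1a2, a chain of type I collagen, read 17662 untreated, 19644 with TGF-beta2, 20569 with SB431542 and 18742 with oxozeaenol (−0.13). Twist1, a mesenchymal transcription factor, differed most, at −0.68. All 33 measured collagen and matrix genes were within 2-fold, from −0.33 to 0.65. Endothelial markers passed the filter in 3 of 12 genes, skeletal muscle markers in 4 of 12 and glial or neural markers in 3 of 8, and of these 10 genes Des, a muscle intermediate filament, was the 1 past 2-fold (−1.61). All 8 measured housekeeping genes lay between −0.14 and 0.04. Heat shock (13 measured), interferon-stimulated (17) and receptor genes gave 0 calls in either direction.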

How the data were processed

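The authors deposited linear intensities of 45101 probe sets on 4 arrays. The submitters' processing notes name GCOS (Affymetrix software), and its version, algorithm and settings were not given there. After trimming 2% of probe sets at each end, the mean intensity was 500.0 on all 4 arrays, so the authors had brought them to a common average. Such scaling assumes equal average transcript levels in all cultures.

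Control probe sets (64) were removed. Of the 45037 others, 34945 had 1 symbol in the platform annotation, 932 had several and 9160 had none. Intensities were turned into log2(value + 21.7), with the 25th percentile of all values added. Probe sets were kept whose mean log2 value over the 4 arrays reached the median of non-control probe sets, and the brightest kept probe set stood for a gene (20064 probe sets, 11744 genes, 5121 of them with at least 2). Genes were counted at 2-fold, and lists by count and median. The number of arrays limits the precision. The steps were checked on simulated data.

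The gene lists and members were chosen with earlier results of these data known. Genes named are the 20 largest differences in each direction with all kept probe sets on 1 side, list members past 2-fold and up to 4 more a list, the 10 genes higher and 10 lower with TGF-beta2 that differ most between inhibitors, receptors, Tak1 complex and housekeeping genes, and other list members as examples within 2-fold. Genes outside this rule were chosen after their values were seen. Promoters came from RefSeq (GRCm38.p6), matched by symbol for 9522 measured genes. Alternatives changed the added value, the filter, the scaling, the probe set rule and the fold. Python 3.11.15, numpy 2.4.6 and pandas 2.3.3 were used.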

Additional observations from a re-analysis of the deposited data

How the results depend on the processing

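With 1 array a group, no alternative can stand in for a replicate, and no library could be left out of an arm. No paired analysis was possible because each group has 1 array. The counts of genes higher and lower with oxozeaenol were 177 and 153, and 32 genes responsive to TGF-beta2 differed. These were out of 11744 genes, of which 79 were higher and 43 lower with TGF-beta2. With the added value at the median of all signals, 110 genes were higher and 17 responsive genes differed (11745 genes, 50 higher and 21 lower with TGF-beta2). With no filter the 3 counts were 527, 473 and 115 (18193 genes, 350 higher and 278 lower with TGF-beta2). With the filter at the 75th percentile they were 46, 85 and 17 (7097 genes, 30 higher and 17 lower with TGF-beta2). At 1.5-fold, 669 were higher and 521 lower, and at 3-fold 46 and 59. Requiring the filter level on both inhibitor arrays, an alternative chosen after seeing the data, gave 114 higher genes. The share of calls that were higher was 53.6%, 45.6% with median centring, 49.1% with quantile normalization and 35.1% with the 75th percentile filter. Other counts, with the lower added value, the filter on the inhibitor arrays, both scalings, averaged probe sets or without epithelial genes, stayed within 1.5 times.

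A changed added value cannot reverse the difference of a given probe set. A stricter or absent filter cannot change it, because the same brightest probe set still stands for the gene. Of 115 named genes past 2-fold, 0 reversed and 15 came under 2-fold in some alternative. These were Etv4, Spry2, Il11, Egr2, Gsta4, Rspo2, Fas, Calhm5, Lce1b, Nrg1, Krt19 and Sfn with the larger added value, Csf1, Zyx, Rspo2 and Auts2 with averaged probe sets, and Gsta4 and Rspo2 with median centring. With the 75th percentile filter 57 of the 115 were measured, and their differences were unchanged by construction. The MAPK feedback list then kept 6 lower genes. The suprabasal list kept 1 higher gene, Krt6a, and the basal list 1, Perp. The general epithelial list kept none of its higher genes. The MAPK feedback median was −0.91 with the larger added value and −0.88 with the filter on the inhibitor arrays. List medians near 0 changed sign under some scalings, for example receptors (−0.02) and interferon-stimulated genes (−0.06) with median centring.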

Other observations

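Genes outside the lists, picked after their values had been seen, widen both sides. Among lower genes with bright signals, Rhob, a small GTPase that acts on actin, read 3977 untreated, 4004 with TGF-beta2, 3421 with SB431542 and 944 with oxozeaenol (−1.83). S1pr3, a receptor for sphingosine-1-phosphate, read 3395 untreated, 2766 with TGF-beta2, 3971 with SB431542 and 1186 with oxozeaenol (−1.72, 2 probe sets between −1.72 and −1.41). Cebpd, a transcription factor of the inflammatory response, read 1788 untreated, 1309 with TGF-beta2, 2010.3 with SB431542 and 598 with oxozeaenol (−1.71). In each the oxozeaenol signal was the lowest of the 4. Trib2, a pseudokinase (−1.82), the ephrin receptor gene Epha2 (−1.47), Socs5, of the same family as Socs3 (−1.5), and Twist2, a relative of Twist1 (−1.57), were lower too. Rgs1, like Rgs16 a regulator of G proteins, was lower at 800.2 untreated, 1293 with TGF-beta2, 518 with SB431542 and 57.9 with oxozeaenol (−2.76), while Rgs4 was higher at 1.29. Ccr1, a receptor for Ccl3 and Ccl7, read 1823 untreated, 1639 with TGF-beta2, 1407 with SB431542 and 324 with oxozeaenol (−2.05).

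Among higher genes, Gadd45b, a stress gene that also binds MAP kinase kinases, read 3470.2 untreated, 6186 with TGF-beta2, 2585 with SB431542 and 7132 with oxozeaenol (1.46, 3 probe sets between 0.22 and 1.46). Fzd2, a Wnt receptor, read 1493 untreated, 1567 with TGF-beta2, 1498 with SB431542 and 3619 with oxozeaenol (1.26, 3 probe sets between 1.04 and 1.32). Arrdc3, an arrestin-like protein, read 643 untreated, 527 with TGF-beta2, 874 with SB431542 and 3993 with oxozeaenol (2.16). Fzd2 and Arrdc3 were highest with oxozeaenol, while Gadd45b was also high with TGF-beta2 alone. Lgr4, a receptor for R-spondins, read 1169 untreated, 627 with TGF-beta2, 912 with SB431542 and 2127 with oxozeaenol (1.20). Dact1, a modulator of Wnt signalling (1.73), Ibsp, a bone matrix protein (1.94), the chemokine receptor gene Cxcr4 (1.35) and Pth1r, the parathyroid hormone receptor (1.43), were higher as well. Fbxo32, a ubiquitin ligase subunit, read 385 untreated, 631 with TGF-beta2, 235 with SB431542 and 984 with oxozeaenol (1.97, 3 probe sets between 1.80 and 2.03). Bcl2l11, a cell death gene of the same class as Bmf, read 535 untreated, 573 with TGF-beta2, 547 with SB431542 and 1412 with oxozeaenol (1.34), with its 5 probe sets between −0.09 and 1.34.

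Of 1886 kept probe sets with no gene symbol, 25 (1.33%) were higher and 20 (1.06%) lower. Of 569 with several symbols, 10 (1.76%) were higher and 3 (0.53%) lower. Among the 20064 kept probe sets with 1 symbol, the shares were 1.42% higher and 1.15% lower.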
